A study of Homo sapiens with 12 samples.

Results

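The genes described are 6 that the literature links to the p53 pathway and to growth arrest: CDKN1A, BTG2, PLK3, CD82, TP53INP1 and CCNG2. They were taken by symbol from the authors' deposited table of 2587 genes, which holds all 6. The study made 12 poly(A) RNA libraries, 3 for each of 4 groups, from Jurkat, a human cell line that came from a T-cell acute lymphoblastic leukaemia. The groups were HuR-knockout (HuRKO) cells given PMA, a phorbol ester, at 20 ng/mL together with the calcium ionophore ionomycin at 500 ng/mL during 24 h (activated), HuRKO cells kept without either agent over that time (rest), wild-type (WT) cells activated in the same way, and WT cells at rest. HuR, encoded by ELAVL1, is an RNA-binding protein of AU-rich and U-rich mRNA stretches, and PMA with ionomycin mimics signals from the T-cell receptor. The labels do not say how the knockout was made, from how many clones the HuRKO cells come, or whether replicates were separate cultures.

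The tumour suppressor p53 is a transcription factor that halts the cell cycle after stress, mainly by raising the CDK inhibitor p21, the product of CDKN1A. Many genes of this programme can also be induced without p53, by growth factor and protein kinase C signals or by FOXO factors. The name of the pathway is background here, and its activity was not tested. The mRNA of CDKN1A has been described in the literature as a HuR target.

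All 6 genes rose on activation in both genotypes, but their rises differed in size between HuRKO and WT cells. CDKN1A, BTG2, PLK3 and CD82 rose less in HuRKO cells, and after activation they were lower in HuRKO than in WT cells by 1.77-fold, 4.64-fold, 3.70-fold and 2.20-fold. TP53INP1 and CCNG2 rose more in HuRKO cells, and after activation they were 13.3-fold and 5.16-fold higher there. At rest, CDKN1A, TP53INP1 and CCNG2 were higher in HuRKO cells, by 2.21-fold, 2.24-fold and 2.02-fold, and the other 3 did not pass the test of the authors' deposited table, a false discovery rate (FDR) below 0.05. In bulk RNA, fewer cells with a transcript and less of it per cell cannot be told apart.

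The counts stand beside a high background, since the table holds only changed genes. In activated HuRKO cells 4 of the 6 genes were lower and 2 higher than in WT cells, against 35.4% and 42.2% of all listed genes. At rest 3 of 6 were higher in HuRKO cells, against 25.0%, and 0 were lower, against 15.4%. On activation 6 of 6 rose and 0 fell in HuRKO cells, against 58.1% and 18.5% of the listed genes, and in WT cells 6 rose and 0 fell, against 52.0% and 21.8%. The median log2 change of the 6 was -0.98 for HuRKO over WT after activation (0.36 over all listed genes) and 0.70 at rest (0.18). On activation it was 2.01 in HuRKO cells (1.45 over all listed genes) and 2.67 in WT cells (1.42).

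The targeted gene ELAVL1 was lower in cells labelled HuRKO, with a level of 471 in activated HuRKO against 2552 in activated WT cells, and 596 in resting HuRKO against 4042 in resting WT cells. Levels are normalised counts of a group, rebuilt from the deposited mean over all libraries and the deposited fold changes, so they carry no spread, and no value of a single library was used. The depth per library is unknown. All listed genes changed more than 4-fold, with an FDR below 0.05, in at least 1 of the 4 comparisons, so large changes are the rule in the table. CDKN1A and PLK3 are listed through activation of WT cells alone, and CCNG2 through the activated HuRKO and WT comparison alone. Of 13 T-cell markers 5 are listed, and they did not move together. Their summed level was 28062 in activated HuRKO, 4940.4 in resting HuRKO, 26584 in activated WT and 10697 in resting WT cells. On activation TRAC rose and CD4 and CD7 fell in both genotypes, and after activation CD4 and CD28 were higher and CD2 and TRAC lower in HuRKO than in WT cells. Of 23 markers of other cell types 9 are listed, and the 5 of natural killer and cytotoxic cells summed to 1612 in activated HuRKO, 239 in resting HuRKO, 2824 in activated WT and 147 in resting WT cells. After activation GZMB was lower in HuRKO cells (193 against 1665 in WT). GNLY (80.2 against 7.10 in WT) and NCAM1 (25.2 against 5.29 in WT) were higher, and PRF1 and KLRD1 did not pass the FDR of 0.05. The erythroid markers HBA1 and HBA2, near-identical copies, summed to 54.3 in activated HuRKO, 48.1 in resting HuRKO, 4.46 in activated WT and 2.95 in resting WT cells. The part of all these markers in the results was not tested. Of 17 listed chromosome Y genes, 16 were lower in HuRKO cells at rest and 16 after activation, each state counted on its own. The shares over all listed genes were 15.4% and 35.4%. The loss of HuR and any other difference between the HuRKO and WT cells cannot be told apart in the comparisons that follow.

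**Figure D1:**
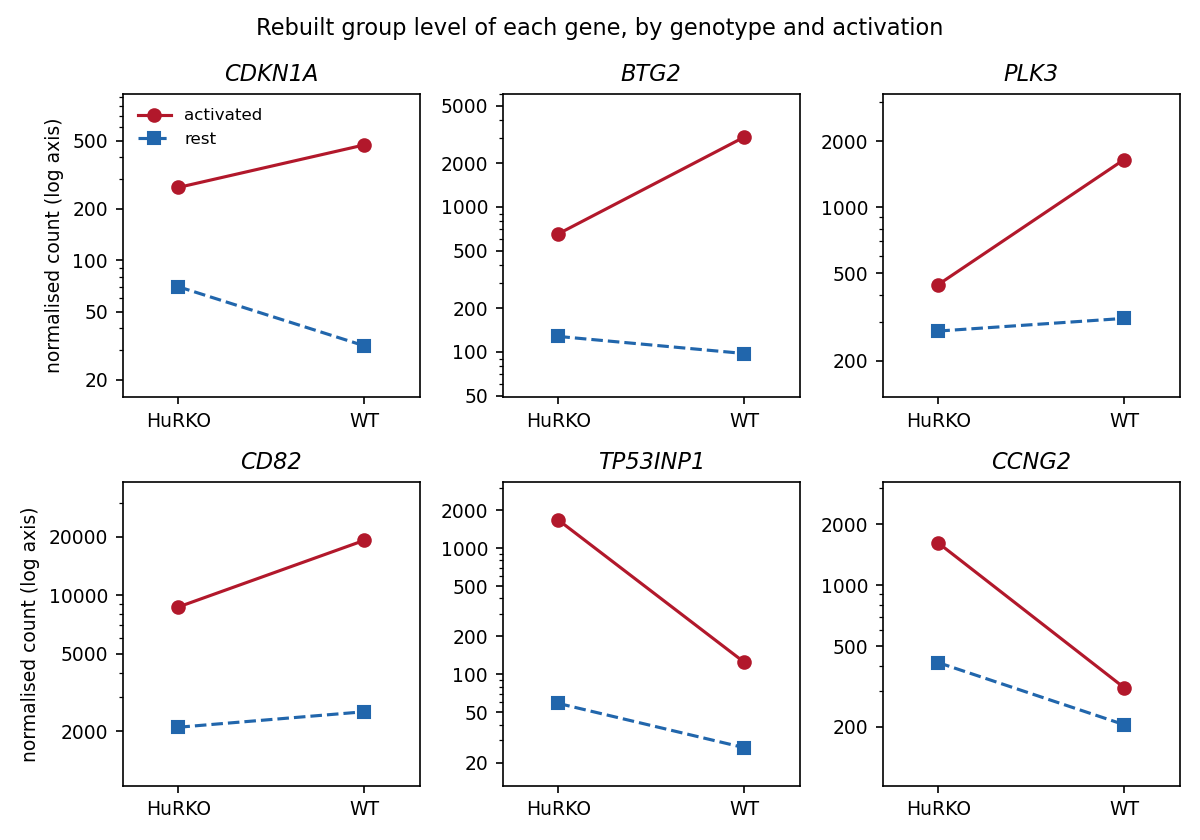
Rebuilt group level of each gene in normalised counts on a log axis, in HuRKO (left of each panel) and WT cells (right), activated (red circles) and at rest (blue squares). The activated points slope up toward WT for CDKN1A, BTG2, PLK3 and CD82 and down toward WT for TP53INP1 (1666 in HuRKO against 125 in WT) and CCNG2. Points are group values without an error, since no single library is shown.

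Because HuR binds AU-rich stretches, the 3′ UTR of each gene was searched on the sense strand for the pentamer ATTTA and the nonamer TTATTTATT, which contains it, in the GENCODE 29 transcript with the longest coding sequence. PLK3 had the highest density of the 6. Its 3′ UTR of 312 bases holds 3 pentamers and 2 nonamers, or 9.62 pentamers per kb, a higher density than in 94.5% of 19495 protein-coding genes. TP53INP1 holds 14 pentamers and 1 nonamer in 4507 bases and CCNG2 9 pentamers in 4135 bases. CDKN1A and CD82 have 3 each and BTG2 has 2. Per kb, TP53INP1 holds 3.11 pentamers, CD82 2.43, CCNG2 2.18, CDKN1A 1.95 and BTG2 0.92. Over all protein-coding genes the median 3′ UTR length is 756 bases, the median count 1 pentamer and the median density 1.35 per kb. The long 3′ UTRs of TP53INP1 and CCNG2 thus bear on their high counts. Of all protein-coding genes 60.7% have at least 1 pentamer, and 6.94% hold the nonamer, against 8.23% of the protein-coding genes of the table. Both the genes with smaller and those with larger rises in HuRKO cells thus carry pentamers, and a match is not a binding site. The stretch of 30 bases richest in ATTTA, and among equals in A and T, is shown 5′ to 3′ on the sense strand for 5 of the genes, with ATTTA in capitals, and TP53INP1 is not shown here. These stretches are shown because AU-rich letters of this kind are what HuR is known to bind.
PLK3: acttttATTTAttgtcagacacttATTTAt
CCNG2: aATTTAtATTTAcaggtttcaaagcaataa
CDKN1A: tcttaattattatttgtgttttaATTTAaa
BTG2: tATTTAtatatattatttttttttaagaaa
CD82: ATTTAtatctttatttttcacaattatatt
On hg38, all on the plus strand, these lie at chr1:44805906-44805935 for PLK3, chr4:77165945-77165974 for CCNG2, chr6:36685887-36685916 for CDKN1A, chr1:203307539-203307568 for BTG2 and chr11:44619875-44619904 for CD82. Counted from 1 after the stop codon, the PLK3 stretch starts at base 228 and holds 1 nonamer, and the CCNG2 stretch starts at base 21 and holds 2 pentamers.

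The promoters in RefSeq (GRCh38.p14, 250 bases before to 50 after the start used there) were searched for the p53 half-site. This motif reads the same on both strands. None of the 5 promoters matched, for all genes but TP53INP1, held it, against 6.63% of 35116 promoters. The start used there is not always the gene start given below. The CDKN1A window, 36678464 to 36678763, lies inside the gene, which begins at 36676460. The CD82 window, 44565413 to 44565712, likewise lies inside a gene that begins at 44564427. The absence of a match says only that these letters are not in those windows. With so low a share over all promoters, 5 windows are too few for a comparison.

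CDKN1A (ENSG00000124762.13, chromosome 6, 36676460 to 36687339, plus strand, hg38), which encodes the CDK inhibitor p21, was at 267 in activated HuRKO, 70.0 in resting HuRKO, 473 in activated WT and 31.6 in resting WT cells. Resting HuRKO cells thus lay above resting WT cells, whereas activated HuRKO cells lay below activated WT cells. The authors' deposited table gives log2 changes of HuRKO over WT of -0.83 after activation (FDR 0.0020) and 1.15 at rest (FDR 0.0013). Both passed the FDR of 0.05, and 92 of the 2587 listed genes, or 3.56%, were likewise higher at rest and lower after activation. Its rise on activation was 3.81-fold in HuRKO cells and 14.9-fold in WT cells, log2 changes of 1.93 (FDR 1.3e-12) and 3.90 (FDR 1.1e-40) in the authors' deposited table. The activated HuRKO and WT levels differed by less than 2-fold, the smallest difference of the 6 genes in that comparison.

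BTG2 (ENSG00000159388.5, chromosome 1, 203305491 to 203309602, plus strand, hg38) belongs to the BTG/TOB family of antiproliferative proteins, which bring mRNAs to the CCR4-NOT deadenylase, and is a known phorbol-ester-induced early gene. It was at 653 in activated HuRKO, 128 in resting HuRKO, 3026 in activated WT and 97.6 in resting WT cells. Resting HuRKO cells were 1.31-fold above resting WT cells, and activated HuRKO cells were well below activated WT cells. By the authors' deposited table, the log2 change of HuRKO over WT was -2.21 after activation (FDR 3.5e-49) and 0.39 at rest (FDR 0.12, not called). It rose 5.10-fold on activation in HuRKO cells. Its rise in WT cells, 31.0-fold (log2 4.95, FDR 2.5e-188 in the authors' deposited table), was the largest of the 6 genes there, and 293 of the listed genes rose more.

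PLK3 (ENSG00000173846.12, chromosome 1, 44800225 to 44805990, plus strand, hg38), a polo-like kinase of the stress response, was at 445 in activated HuRKO, 273 in resting HuRKO, 1648 in activated WT and 312 in resting WT cells. Activated WT cells stood above the other 3 groups. Its log2 change of HuRKO over WT was -1.89 after activation (FDR 6.5e-41) and -0.19 at rest (FDR 0.42, not called), by the authors' deposited table. On activation PLK3 rose 1.63-fold in HuRKO cells (log2 0.70, FDR 4.2e-06 in the authors' deposited table), the smallest rise of the 6 genes there, and 5.28-fold in WT cells.

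CD82 (ENSG00000085117.11, chromosome 11, 44564427 to 44620363, plus strand, hg38) encodes a tetraspanin of the cell surface that is known as a metastasis suppressor. It was at 8719.6 in activated HuRKO, 2093 in resting HuRKO, 19201 in activated WT and 2515 in resting WT cells. HuRKO cells were below WT cells in both states, but at rest the difference did not pass. The authors' deposited table gives -1.14 after activation (FDR 2.0e-23) and -0.27 at rest (FDR 0.078) for the log2 change of HuRKO over WT. On activation CD82 rose 4.17-fold in HuRKO and 7.63-fold in WT cells. Per kb of merged exons, its level was the highest of the 6 genes in every group, at 2151 normalised counts per kb in activated HuRKO, 516 in resting HuRKO, 4736 in activated WT and 620.4 in resting WT cells.

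TP53INP1 (ENSG00000164938.13, chromosome 8, 94925972 to 94949411, minus strand, hg38), a stress-induced protein that acts with p53 and in autophagy, was at 1666 in activated HuRKO, 58.9 in resting HuRKO, 125 in activated WT and 26.3 in resting WT cells. Activated HuRKO cells lay far above the other 3 groups. The log2 change of HuRKO over WT was 3.73 after activation (FDR 1.4e-101) and 1.16 at rest (FDR 4.8e-05) in the authors' deposited table. Its rise on activation was 28.3-fold in HuRKO cells and 4.75-fold in WT cells. In HuRKO cells, 212 of the listed genes rose more. Per kb of merged exons, TP53INP1 was at 294 in activated HuRKO, 10.4 in resting HuRKO, 22.0 in activated WT and 4.64 in resting WT cells. It was the lowest of the 6 genes in both resting groups and the second of the 6 in activated HuRKO cells, after CD82.

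CCNG2 (ENSG00000138764.14, chromosome 4, 77157151 to 77433388, plus strand, hg38) encodes an unconventional cyclin that is linked to arrest rather than to division and is a known FOXO target. It was at 1613 in activated HuRKO, 415 in resting HuRKO, 312 in activated WT and 205 in resting WT cells. Both HuRKO groups lay above both WT groups. The authors' deposited table gives log2 changes of HuRKO over WT of 2.37 after activation (FDR 4.9e-63) and 1.02 at rest (FDR 2.7e-10). CCNG2 rose 3.89-fold on activation in HuRKO cells and 1.52-fold in WT cells, the smallest rise of the 6 genes in WT cells (log2 0.61, FDR 1.9e-04 in the authors' deposited table).

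For the 3 genes not called at rest, a 95% interval was taken from the FDR, which is at least as large as its p-value and so bounds the standard error from above if the deposited test was close to a normal one. The interval of HuRKO over WT was 0.94-fold to 1.84-fold for BTG2, 0.64-fold to 1.21-fold for PLK3 and 0.68-fold to 1.02-fold for CD82. A difference at rest of up to these bounds was therefore not shown to be absent.

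**Figure D2:**
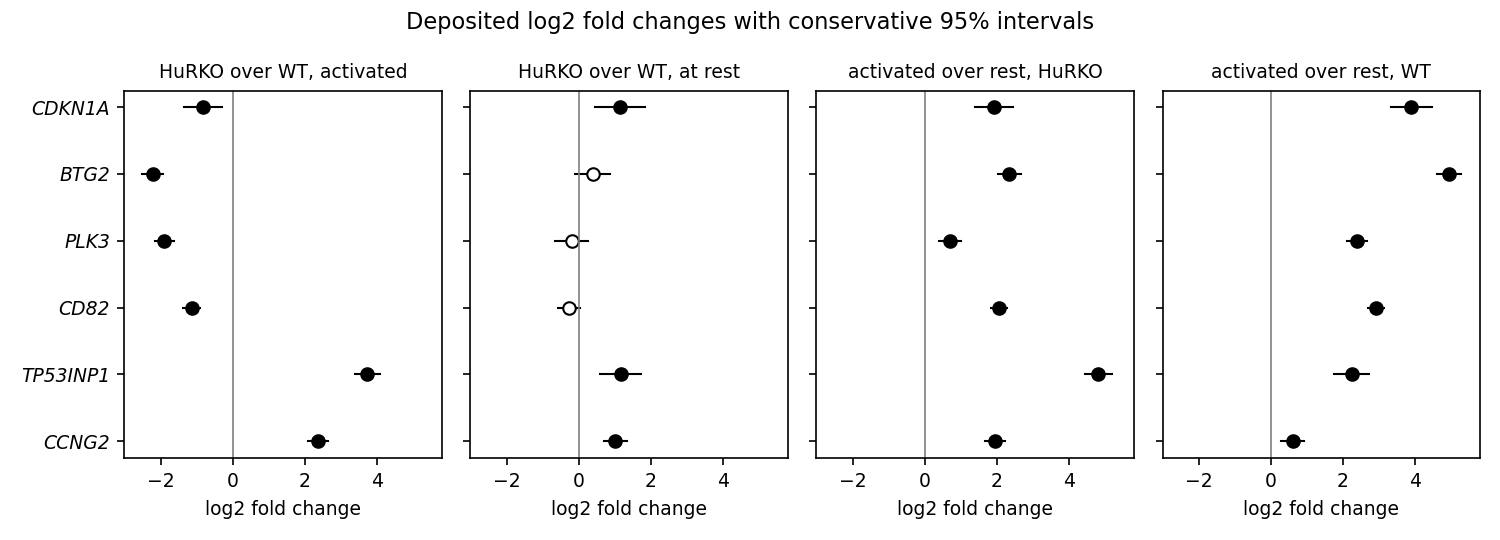
Log2 fold changes of the 6 genes from the authors' deposited table in 4 comparisons, with horizontal lines for the conservative 95% interval and filled points for an FDR below 0.05. The 3 open points are BTG2, PLK3 and CD82 at rest, whose intervals cross 0.

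The activation responses of the 2 genotypes were then compared directly, as the difference of log2 responses (HuRKO minus WT). The bounds on the standard error were those above. For each gene the variance was the smaller of 2 sums, from the 2 activation or from the 2 genotype comparisons. An interval was computed for each listed gene at 95% after Bonferroni adjustment over the 58780 genes of GENCODE 29. A difference was called where this adjusted interval left out 0. The interval assumes a normal approximation, which was not checked for 3 libraries a group. All 6 differences were called, against 20.2% of the listed genes (10.4% negative and 9.78% positive). This count is not a test of the 6 as a set, since they were chosen with earlier results of these data known. CDKN1A and PLK3 are listed only through activation of WT cells, and CCNG2 only through the activated HuRKO and WT comparison. Those same values enter the difference. BTG2 had the largest negative difference of the 6, -2.60 (adjusted interval -3.78 to -1.43), which is a 6.08-fold smaller rise in HuRKO cells. The difference for CDKN1A was -1.97, and its adjusted interval, -3.94 to -0.0055, came close to 0. PLK3 followed with -1.70 (-2.73 to -0.67) and CD82 with -0.87 (-1.66 to -0.084). In the other direction, TP53INP1 rose 5.95-fold more in HuRKO cells, a difference of 2.57 (1.04 to 4.11). CCNG2 had a difference of 1.35 (0.30 to 2.41). When the bounds came from the 2 genotype comparisons for all 6 genes, the adjusted intervals of CDKN1A (-4.17 to 0.22) and CD82 (-1.80 to 0.056) held 0. The difference equals the genotype change after activation minus that at rest, so it shares all its libraries with the changes given above and is not a further measurement.

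**Figure D3:**
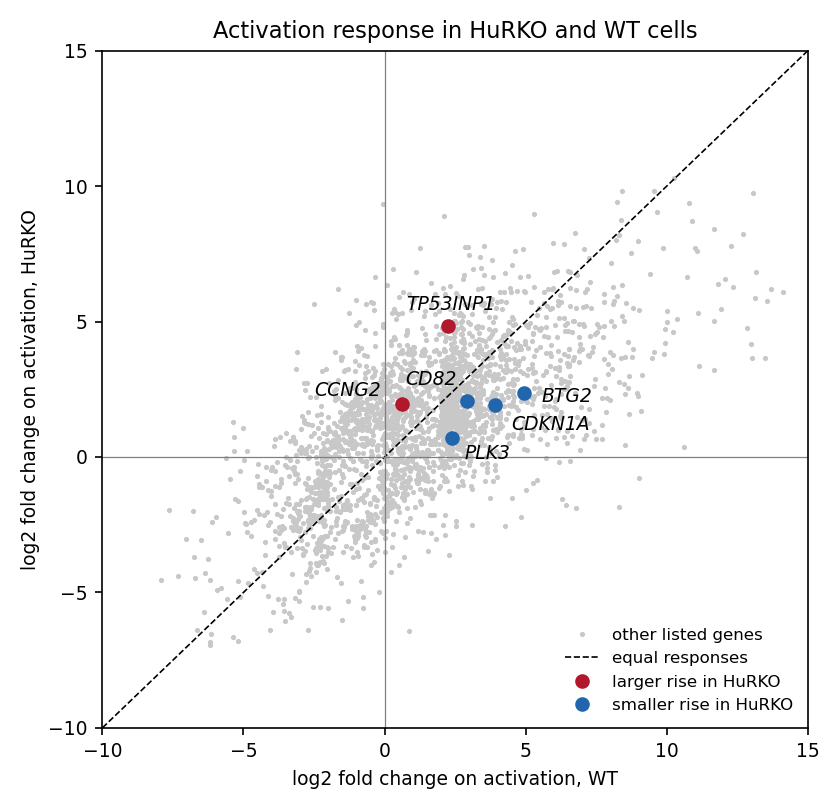
Log2 fold change on activation in HuRKO cells (vertical) against WT cells (horizontal), with 1 grey point per other listed gene and a dashed line of equal responses. TP53INP1 (4.82 in HuRKO, 2.25 in WT) and CCNG2 (1.96 in HuRKO, 0.61 in WT) lie above the line in red. BTG2 (2.35 in HuRKO, 4.95 in WT), CDKN1A, PLK3 and CD82 (2.06 in HuRKO, 2.93 in WT) lie below it in blue.

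The 4 genes with smaller rises were closer in pattern to each other than to the other 2. This follows in part from the grouping, which was made from the same values, and is not a further result. As a description, the root mean square difference of log2 group levels over the 4 groups, each gene centred on its own mean, ran from 0.54 (PLK3 and CD82) to 1.08 (BTG2 and PLK3) among the 4. Between TP53INP1 and CCNG2 it was 1.23, and between the 4 and these 2 it ran from 1.39 to 2.27. Among 1121 listed genes with a mean level of at least 50, the nearest to CDKN1A by this measure was the interferon regulatory factor gene IRF7 (0.16), followed by CDYL2 (0.22) and IL2RB (0.23). The nearest to BTG2 were HLA-G (0.19), KLF9 (0.20) and HLA-E (0.23), and HLA genes share near-identical stretches, so their separate values are uncertain. PLK3 was nearest to the kinase genes PRKD3 (0.049) and LRRK1 (0.076) and to GPR108 (0.11), and CD82 to MPZL3 (0.056), BACH2 (0.086) and INTS6L (0.11). CCNG2 was nearest to MYLIP (0.072), PLXNB1 (0.14) and TRGV5P (0.16). TP53INP1 had no neighbour as close, with SOX13 at 0.36, HS3ST3B1 at 0.39 and IGHM at 0.39.

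Of 60 other p53 target genes in a list, 8 are in the table, and the other 52 were not analysed here. On activation 5 of the 8 rose and 2 fell in HuRKO cells, and 5 rose and 1 fell in WT cells. The shares over all listed genes were 58.1% and 18.5% in HuRKO cells and 52.0% and 21.8% in WT cells. BTG1, the close relative of BTG2, was at 3593 in activated HuRKO, 232 in resting HuRKO, 6083 in activated WT and 239.6 in resting WT cells. Its activated HuRKO level was 1.69-fold lower than in activated WT cells, and the difference of its responses (-0.71) was not called (adjusted interval -1.72 to 0.30). BCL6, a transcriptional repressor, rose in both genotypes (1476 in activated against 68.1 in resting HuRKO cells, and 1027 in activated against 77.8 in resting WT cells). TGFA, a ligand of the EGF receptor, was at 480.0 in activated HuRKO against 105 in activated WT cells. TRIM22, an interferon-induced gene, was at 201 in activated HuRKO against 488 in activated WT cells. GADD45B, a stress-induced growth arrest gene, fell on activation in both, to 60.4 against 201 at rest in HuRKO cells and to 26.2 against 149.5 at rest in WT cells. TNFRSF10C and HES2 were higher in resting HuRKO cells, at 11.2 and 35.1 against 2.61 and 8.48 in resting WT cells. At rest 2 of the 8 were thus higher in HuRKO cells and 0 lower, against 25.0% and 15.4% of all listed genes. TNFRSF10C had an FDR of 0.043 at rest in the authors' deposited table, and its counts were low in every group. In activated HuRKO cells 4 of the 8 were higher and 2 lower than in WT cells, against 42.2% and 35.4% of all listed genes. The difference of responses was called for 0 of the 8, against 20.2% of all listed genes, and TGFA came closest (1.80, adjusted interval -0.029 to 3.64). A difference that was not called is not shown to be absent.

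A second list of 87 genes of growth control (cyclins, CDK inhibitors, proliferation genes and relatives of the 6) has 8 in the table. On activation 3 of the 8 rose and 3 fell in HuRKO cells, against 58.1% and 18.5% of all listed genes, and 4 rose and 4 fell in WT cells, against 52.0% and 21.8%. At rest 2 were higher in HuRKO than in WT cells and 0 lower, against 25.0% and 15.4%. In activated HuRKO cells 3 of the 8 were higher and 4 lower than in WT cells, against 42.2% and 35.4%. CCND2, a D-type cyclin that drives entry into division, was at 64.2 in activated HuRKO, 28.6 in resting HuRKO, 310.1 in activated WT and 18.4 in resting WT cells, and its difference of responses was -2.91 (adjusted interval -4.85 to -0.98). CCND1 was at 23.1 in activated HuRKO against 55.7 in activated WT cells, and in resting WT cells it was below the floor of 1 normalised count. MYC, a driver of growth, fell in both genotypes and more so in HuRKO cells, to 125 in activated against 8009.6 in resting HuRKO cells, and to 3323 in activated against 9353 in resting WT cells. The CDK inhibitor gene CDKN2D fell on activation as well, to 174 in activated against 428 in resting HuRKO cells and to 104 in activated against 501 in resting WT cells. FOXO1, a transcription factor of quiescence, was at 169 in activated HuRKO against 467 in activated WT cells, below WT like the 4 genes with smaller rises, and its difference of responses was not called (-1.74, adjusted interval -3.51 to 0.018). KLF2, a gene of quiescent T cells, was higher in HuRKO cells in both states, at 34.2 in activated HuRKO against 7.99 in activated WT cells and at 153 in resting HuRKO against 64.0 in resting WT cells. Of the tetraspanins in this list that are in the table, TSPAN7 was at 2700 in activated HuRKO against 728 in activated WT cells, and TSPAN32 was at 10.8 in activated HuRKO and 10.8 in activated WT cells. At rest TSPAN32 was higher in HuRKO cells, at 11.3 against 2.19 in WT cells (FDR 0.041 in the authors' deposited table). Its counts were low in every group. The difference of responses was called for 3 of the 8, against 20.2% of all listed genes, negative for MYC (-4.51) and CCND2 and positive for TSPAN7 (2.07).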

How the data were processed

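Poly(A) RNA of 12 Jurkat libraries was sequenced from directional libraries, per the labels' protocols. TopHat and Bowtie2 were used with hg38, per the submitters' processing notes. The counter, its strand setting and the test were not given in the sources used here. The deposited table gives a signal per gene, the authors' mean normalised count over all libraries, and for 4 comparisons a log2 fold change and an FDR, a p-value adjusted by the authors. Base 2 is inferred: rebuilt levels of resting WT cells below 1 gather in steps, with up to 30.6% of them inside a range that spans 10%, against 5.34% on base e. There were 0 unmapped columns of values per sample.

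Group levels were computed from the mean, taken as the arithmetic mean of 4 equal groups, and the changes. The floor was 3 counts over 3 libraries, or 1 normalised count, and covers counting error only. The depth is unknown. Calls are an FDR below 0.05. An FDR can at most weigh a change against the spread between libraries, which may be technical, and the authors' test is unknown. The bound for the difference of responses was tested on simulated data, where it missed most true differences. Of the gene IDs, 2577 of 2587 matched GENCODE 29. Promoters matched for 5 of 6 genes. The members and lists were chosen with earlier results of these data known. Named genes were the members, list members in the table (1 is counted but not reported here by its values), the 3 nearest genes by pattern and ELAVL1. Scripts used Python 3.11.15, numpy 2.4.6, pandas 2.3.3, scipy 1.17.1 and matplotlib 3.10.9. Stricter calls, other variance bounds and other level, likeness and transcript choices were tried.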

Additional observations from a re-analysis of the deposited data

Results flagged for a closer look

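The rise on activation differed between HuRKO and WT cells for each of the 6 genes, by the conservative adjusted interval of the difference itself. Such a difference was called for 20.2% of all listed genes. CDKN1A, PLK3 and CCNG2 are listed only through a comparison whose value enters this difference. With the bounds of the 2 genotype comparisons the difference was called for 4 of the 6, and CDKN1A and CD82 were no longer called. The share of all listed genes under those bounds was not computed. The differences of log2 responses (HuRKO minus WT) were -1.97 for CDKN1A, -2.60 for BTG2, -1.70 for PLK3, -0.87 for CD82, 2.57 for TP53INP1 and 1.35 for CCNG2.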

How the results depend on the processing

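The numbers of the 6 genes called stayed within 1.5 times under an FDR of 0.01 and under an FDR of 0.05 with at least 2-fold. The 2-fold rule dropped CDKN1A between activated HuRKO and WT cells (-0.83), CCNG2 on activation of WT (0.61) and PLK3 on activation of HuRKO (0.70). With the variance bounded by the 2 genotype comparisons, the differences of responses of CDKN1A (-1.97) and CD82 (-0.87) were no longer called, and 4 of 6 were. With the bounds of the 2 activation comparisons, or Bonferroni adjustment over the 2587 listed genes, all 6 were called. The shares of all listed genes under these other settings were not computed. With an FDR below 0.01, 1 member each of the p53 target and growth control lists was called at rest, against 2 each at 0.05. Taking the deposited mean as a geometric mean multiplies every level of a gene by 1.34 (PLK3) to 3.50 (TP53INP1) and changes no fold. By the largest difference in place of the root mean square, 2 or 3 of the 3 nearest genes were shared for each gene. Pentamer counts were the same in the transcripts with the longest 3′ UTR. No replicate could be left out, and no paired analysis was possible because the table holds no value per library. The FDR is the only value here that can reflect replicate error, and the unknown depth sets no limit that could be computed.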
